A study of Mus with 15 samples.

Results

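The 8 GIMAP genes measured here encode a family of GTPases of lymphocytes. They were taken as the rows of the count table that lie in the Gimap gene cluster on chromosome 6 and match the symbols Gimap1, Gimap3, Gimap4, Gimap5, Gimap6, Gimap7, Gimap8 and Gimap9, which makes 8 of 55573 genes. All 8 passed the filter on low counts that left 16069 genes for testing. RNA came from thymocytes sorted from 6-week-old female mice, C57Bl/6 x Foxp3-GFP, in which a green fluorescent reporter marks FOXP3, the transcription factor of regulatory T cells (Tregs). Every gate held live TCRb+CD4+CD8- cells that were CD73-, a gate that leaves out cells carrying that ecto-enzyme. Conventional CD4 single-positive (CD4SP) cells were Bst2-CD25-Foxp3-, CD25+ Treg progenitors were Bst2-CD25+Foxp3-, FOXP3lo Treg progenitors were Bst2-CD25-Foxp3lo, and mature Tregs were Bst2-CD25+Foxp3+. The Bst2+ gate held cells that were Bst2+ and also carried CD25, Foxp3 or the pair together. Each of the 5 gates had 3 libraries (replicates 40, 42 and 43), all from a single sort. Since the labels leave unsaid if each replicate was 1 animal or several pooled, p-values measure only the spread among these libraries.

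GIMAP proteins carry a guanine nucleotide-binding domain related to that of septins and dynamins, and several are anchored in the membranes of lysosomes, the endoplasmic reticulum, mitochondria or the Golgi. They are known for the survival of resting T cells: loss of Gimap5 in rats and mice causes a shortage of peripheral T cells, and loss of Gimap1 removes most mature lymphocytes. Many of them are switched on in thymocytes as these pass from the double-positive to the single-positive stage.

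The libraries held between 10816064 and 23758157 counts assigned to genes. Expression is given in CPM, the unit of counts relative to library size, here scaled by edgeR's TMM factors. The 11 T cell identity genes (such as Cd3e, Cd4 and Lck) summed to 4008 to 5780 CPM across all 15 libraries, and none was at 0 in any gate. The Bst2+ libraries stood apart: they had 14685 to 17198 genes with a count against 18355 to 23382 elsewhere, and their biological coefficient of variation was 0.947 against 0.149 to 0.24 within the other gates. They also carried 577 to 955 CPM of 10 macrophage and dendritic cell markers in sum, against at most 7.54 CPM in any other library. Their spread enters the error of every test, so counts of called members are also given without them.

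The cluster spans 123.6 kb of chromosome 6 (GRCm38, 48647234 to 48770851), and the members follow one another along it. Gimap8 (ENSMUSG00000064262, 48647234 to 48660875, plus strand) comes first. Gimap9 (ENSMUSG00000051124, 48676129 to 48679114, plus), Gimap4 (ENSMUSG00000054435, 48684549 to 48692060, plus) and Gimap6 (ENSMUSG00000047867, 48701582 to 48708225, minus) are next. The second part of the cluster holds Gimap7 (ENSMUSG00000043931, 48718621 to 48724636, plus), Gimap1 (ENSMUSG00000090019, 48739054 to 48743795, plus), Gimap5 (ENSMUSG00000043505, 48746197 to 48754210, plus) and Gimap3 (ENSMUSG00000039264, 48764464 to 48770851, minus). A read-through gene, ENSMUSG00000098715, shares exon bases on the same strand with Gimap7 (3.48% of its exon length), Gimap1 (6.44%) and Gimap5 (3.69%), and reads there are uncertain. Gimap3 and Gimap5 are close relatives, so reads from sequence they share are uncertain too. Counts behind single members ran from 201 (Gimap7, Bst2+ replicate 42) to 15899 (Gimap4, conventional replicate 40).

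The family as a whole was most abundant in FOXP3lo progenitors and least abundant in CD25+ progenitors. Summed over the 8 members, transcripts reached 3003 ± 46.3 CPM in FOXP3lo progenitors, 2310.0 ± 69.97 in mature Tregs, 2218 ± 49.6 in conventional cells, 1442 ± 237 in Bst2+ cells and 1058 ± 31.5 in CD25+ progenitors (SD, n = 3). In shares of the scaled counts, that is 0.3%, 0.231%, 0.222%, 0.144% and 0.106%. In sorted bulk samples, fewer cells expressing a gene and less RNA per cell cannot be told apart.

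Set against exon length, the members differed among themselves by a wide margin. In conventional cells Gimap4 stood at 347 ± 4.19 CPM per kb of exon, above 99.66% of tested genes. Gimap6 (156 ± 3.61), Gimap3 (129.7), Gimap8 (98.2) and Gimap9 (95.7 CPM per kb) came next. Gimap1 (33.0), Gimap7 (17.8) and Gimap5 (9.26 CPM per kb, above 70.91% of tested genes) were the lowest. Gimap4 was first and Gimap7 and Gimap5 last in each of the 5 gates, while Gimap3 moved from the third place in conventional cells to the second in FOXP3lo progenitors (265 CPM per kb) and mature Tregs (214), and to the fifth in CD25+ progenitors (41.7).

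**Figure D1:**
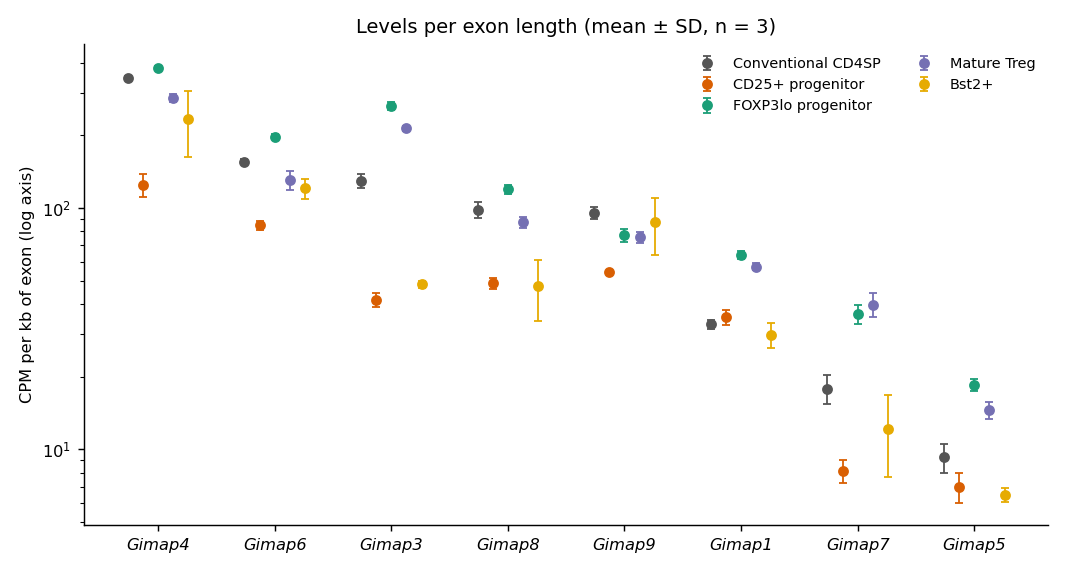
Level of each GIMAP gene per kb of exon (log axis, CPM per kb), with the mean of 3 libraries as a point and the SD as a bar, coloured by gate. Gimap4 is the highest and Gimap5 the lowest in each gate, from 347 to 9.26 CPM per kb in conventional cells.

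Gimap5, at home in lysosomal membranes and needed for T cell survival, was measured at 44.2, 33.4 and 37.6 CPM in conventional cells (replicates 40, 42 and 43). It was at 25.9, 33.6 and 27.3 CPM in CD25+ progenitors and at 28.4, 27.5 and 25.0 in Bst2+ cells. It was at 71.7, 79.9 and 79.2 CPM in FOXP3lo progenitors and at 66.1, 57.0 and 57.7 in mature Tregs. The FOXP3lo and mature Treg libraries all lay above every library of the other 3 gates, and conventional and CD25+ libraries overlapped.

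Gimap3, the closest relative of Gimap5, had the widest range between gates. Its libraries gave 344, 350.2 and 308 CPM in conventional cells and 111, 113 and 98.8 in CD25+ progenitors. They gave 673, 663 and 715 CPM in FOXP3lo progenitors and 543, 565 and 546 in mature Tregs. The Bst2+ libraries, at 127.7, 120.3 and 125 CPM, lay just above the CD25+ libraries without overlapping them. No other pair of gates overlapped for Gimap3 either.

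Gimap1, which mature T and B cells need to persist, had overlapping libraries in 3 gates. It was at 104, 96.2 and 104 CPM in conventional cells, 107, 101 and 116 in CD25+ progenitors and 102, 93.4 and 80.3 in Bst2+ cells. It was at 206, 191 and 193 CPM in FOXP3lo progenitors and 169, 180.4 and 177 in mature Tregs. Those 6 libraries lay above the other 9.

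Gimap4, which has been linked to the pace of T cell death, was the most abundant member per length. It was at 643, 642 and 629 CPM in conventional cells, 690.1, 715 and 698 in FOXP3lo progenitors and 535, 541 and 500.2 in mature Tregs. The CD25+ libraries were lower than all others, at 258, 213 and 215 CPM. The Bst2+ libraries were spread out: replicate 40, at 579.5 CPM, lay above the mature Tregs, and replicates 42 and 43, at 341 and 368 CPM, lay below them.

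Gimap6, whose protein binds the GABARAP family of autophagy proteins, was at 537, 559 and 537 CPM in conventional cells and at 295, 309 and 284 in CD25+ progenitors. It was at 673, 705 and 694 CPM in FOXP3lo progenitors, at 416, 495 and 457 in mature Tregs and at 468, 391 and 407 in Bst2+ cells. The CD25+ libraries were the 3 lowest of the 15 and the FOXP3lo libraries the 3 highest.

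Gimap7, whose product can stimulate GTP hydrolysis by other family members, was at 34.9, 44.2 and 45.1 CPM in conventional cells and at 19.5, 20.5 and 16.6 in CD25+ progenitors. It was at 90.4, 87.3 and 76.2 CPM in FOXP3lo progenitors, 86.3, 104.5 and 86.9 in mature Tregs and 32.9, 16.3 and 35.9 in Bst2+ cells. FOXP3lo and mature Treg libraries overlapped each other and lay above the rest.

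Gimap8, the family's largest protein with more than 1 GTPase domain, was at 386, 371 and 333 CPM in conventional cells and at 175, 192 and 175 in CD25+ progenitors. It was at 429, 465 and 435 CPM in FOXP3lo progenitors, 313, 315 and 344 in mature Tregs and 184, 122 and 221 in Bst2+ cells. Bst2+ and CD25+ libraries overlapped at the low end.

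Gimap9 differed from the rest in its order of gates. It was highest in conventional cells, at 149, 155 and 167 CPM. FOXP3lo progenitors (118, 133 and 128 CPM) and mature Tregs (117, 127 and 129.6) lay below these and overlapped each other. The CD25+ libraries, at 88.4, 90.4 and 88.2 CPM, were the lowest 3 of the 15. The Bst2+ libraries ran from 108 to 184 CPM and overlapped those of conventional, FOXP3lo and mature Treg cells.

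**Figure D2:**
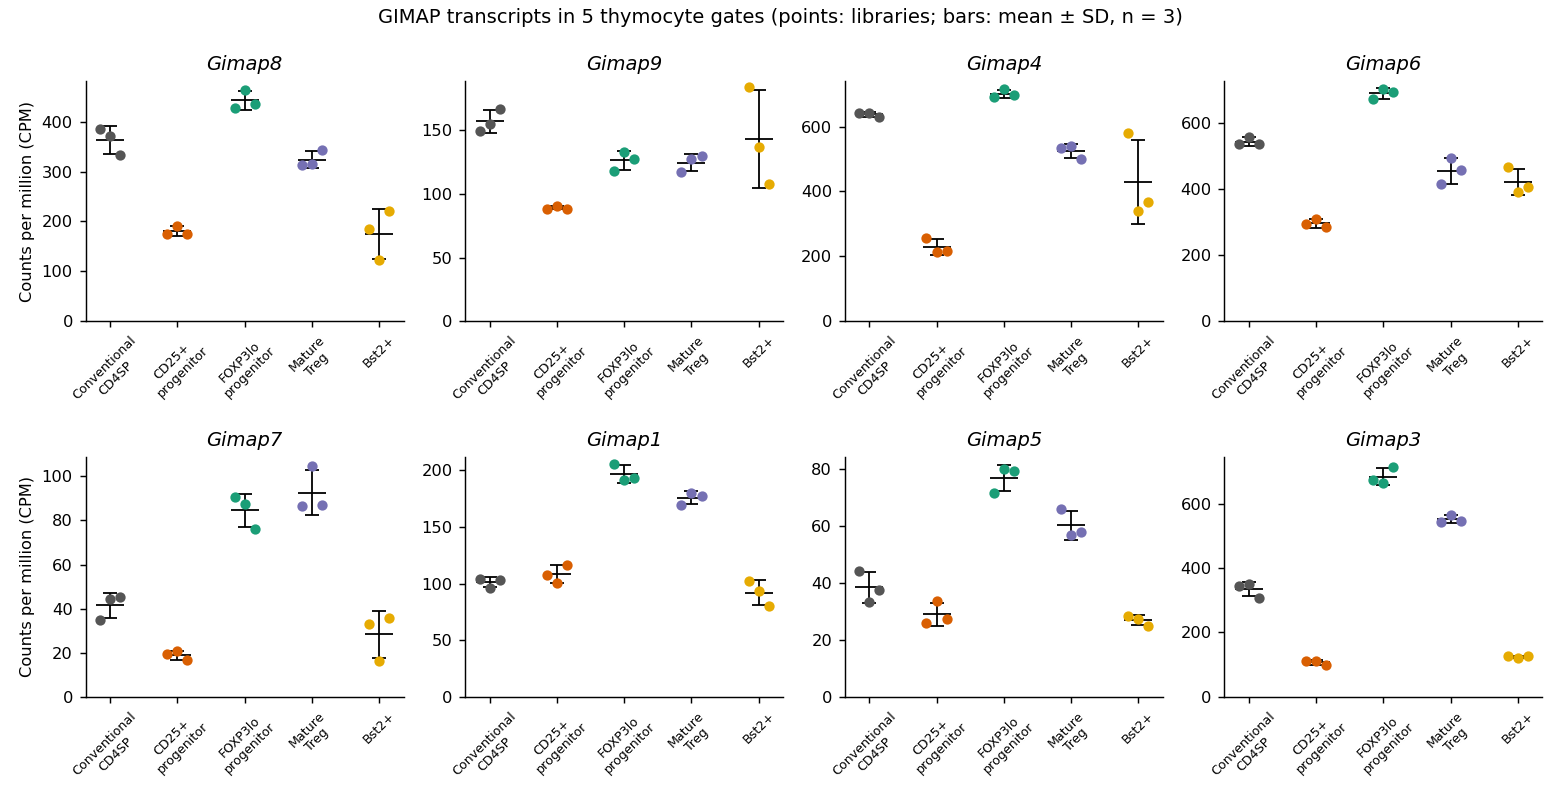
Level of each GIMAP gene (CPM, linear axes from 0) in the 5 gates, in the order of the genes along the cluster, with libraries as points and the mean ± SD of 3 libraries as bars. For the 4 genes of the upper row conventional cells lie near or above mature Tregs, and for the 4 genes of the lower row FOXP3lo progenitors and mature Tregs lie above the other gates.

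Ordered by level, FOXP3lo progenitors held the first place for Gimap1, Gimap3, Gimap4, Gimap5, Gimap6 and Gimap8, mature Tregs for Gimap7 and conventional cells for Gimap9. Neighbouring gates were often not separated by the test, whose error includes the spread of the Bst2+ libraries. Mature Tregs and FOXP3lo progenitors, first and second for Gimap1, Gimap5 and Gimap7, were not separated by the test for these 3 (adjusted p = 0.535, 0.243 and 0.943). Nor were FOXP3lo progenitors and conventional cells for Gimap4 and Gimap8 (adjusted p = 0.776 and 0.308), or conventional and Bst2+ cells for Gimap9 (adjusted p = 0.5). Even so, FOXP3lo and mature Treg libraries did not overlap for Gimap1 and Gimap5. FOXP3lo and conventional libraries did not overlap for Gimap4 and Gimap8. With the Bst2+ libraries left out, Gimap5 was called lower in mature Tregs and Gimap8 higher in FOXP3lo progenitors in these comparisons. Each adjusted p below comes from the quasi-likelihood test of edgeR, with the Benjamini-Hochberg method applied across 16069 genes, and a gene is called, or said to rise or fall, at an adjusted p under 0.05. Fold changes are log2 values from that fit, given ± standard error.

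CD25+ progenitors were compared with conventional cells to see how cells with CD25 but without FOXP3 differ. GIMAP transcripts were lower in CD25+ progenitors: 6 of the 8 members fell, where 5.66% of all tested genes fell. Gimap3 fell most, 3.11-fold (−1.64 ± 0.08, adjusted p = 8.06e-10), followed by Gimap4, 2.79-fold (−1.48 ± 0.14, adjusted p = 1.92e-06). Gimap7 (−1.13 ± 0.22), Gimap8 (−1.01 ± 0.14), Gimap6 (−0.88 ± 0.08) and Gimap9 (−0.82 ± 0.14) fell as well. The exceptions were Gimap1, at 0.09 ± 0.10 (adjusted p = 0.728), and Gimap5, at −0.41 ± 0.15 (adjusted p = 0.0871). The median over the 8 members was −0.94, against −0.01 over all genes tested. In 6 of 8 members the libraries of the gates did not overlap, as in 40.3% of tested genes.

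Without the Bst2+ libraries 7 members fell, Gimap5 included (−0.41), where 14.3% of tested genes fell, and DESeq2 called Gimap5 lower too (−0.42). Other thymocyte markers moved with this comparison: of 15 early thymocyte genes, 7 rose and 4 fell, with Rag1, part of the antigen receptor recombinase, higher by 4.65 ± 0.50. The early list summed to 1630 to 1670 CPM per library in CD25+ progenitors and 1360 to 1687 in conventional cells, with no member at 0. The gamma-delta T cell markers, 4 of 5 matched, summed to 35.3 to 38.5 CPM against 14.97 to 22.95, with none at 0. Trgc2 (7.22 ± 0.64) and Trgc1 (3.77 ± 0.87) were called higher, while Trdc (−0.08 ± 0.35) and Sox13 (−1.105 ± 0.98) were not called. Of the 11 T cell identity genes 8 fell and none rose (median −0.46), and their sum was 4008 to 4380 CPM against 5137 to 5780. The part of these genes in the GIMAP differences was not tested.

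FOXP3lo progenitors, with low FOXP3 and no CD25, were also compared with conventional cells. Here 5 of the 8 members rose, where 4.88% of all tested genes rose, and none fell. Gimap3 (1.03 ± 0.08, adjusted p = 1.42e-07), Gimap7 (1.03 ± 0.22, adjusted p = 0.005), Gimap5 (1.00 ± 0.14, adjusted p = 0.000194) and Gimap1 (0.96 ± 0.10, adjusted p = 5.08e-06) rose. Gimap6 rose by less, 1.27-fold (0.34 ± 0.08, adjusted p = 0.0122). Gimap8 (0.29 ± 0.14, adjusted p = 0.308), Gimap4 (0.14 ± 0.14, adjusted p = 0.776) and Gimap9 (−0.31 ± 0.14, adjusted p = 0.221) did not pass the test. The median was 0.65 against −0.02 over all genes tested, and the libraries did not overlap for any of the 8, as for 38.7% of tested genes.

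The Gimap6 call was lost without conventional replicate 40 or 43 or FOXP3lo replicate 42 or 43, at 0.33, 0.33, 0.33 and 0.34. Without the Bst2+ libraries 6 members rose, Gimap8 added, and Gimap9 fell, where 12.8% of tested genes rose and 12.3% fell. Of the 15 early thymocyte genes 7 fell and none rose, and of the 11 T cell identity genes 1 rose and 1 fell (median −0.13). Their part was not tested.

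Mature Tregs, with CD25 and FOXP3, were compared with conventional cells too. None of the 8 members was called lower, and 4 rose, where 6.45% of all tested genes rose. They were Gimap7, 2.24-fold (1.16 ± 0.22, adjusted p = 0.0013), Gimap1, 1.73-fold (0.79 ± 0.10, adjusted p = 2.07e-05), Gimap3, 1.65-fold (0.72 ± 0.08, adjusted p = 3.82e-06), and Gimap5, 1.57-fold (0.65 ± 0.14, adjusted p = 0.00564). The other 4 were at or below 0 on the log2 scale and were not called: Gimap9 (−0.33 ± 0.14), Gimap4 (−0.28 ± 0.14), Gimap6 (−0.25 ± 0.08, adjusted p = 0.0519) and Gimap8 (−0.16 ± 0.14). The median was 0.24 against −0.01 over all genes tested, and 7 of 8 members did not overlap, as for 39.4% of tested genes.

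Without the Bst2+ libraries the same direction held, with the 4 higher members called and Gimap4, Gimap6 and Gimap9 called lower, where 15.1% of tested genes rose and 15.3% fell. Leaving out Bst2+ replicate 40 alone gave the same 7 calls, and the Gimap5 call was lost without conventional replicate 42, at 0.54. Gimap6 was called lower with limma-voom and with DESeq2 as well, at −0.25 in both. Its main outcome, not called, was kept in only 14 of 25 alternatives. T cell identity genes were mostly lower in mature Tregs, where 9 of 11 fell and 1 rose (median −0.62), and 6 of 15 early thymocyte genes fell. The part of these lists was not tested.

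CD25+ and FOXP3lo progenitors, the candidate precursors of mature Tregs in the labels, were furthest apart. All 8 members were lower in CD25+ progenitors, where 9.17% of all tested genes were lower. Gimap3 differed 6.36-fold (−2.67 ± 0.08, adjusted p = 2.53e-12) and Gimap7 4.48-fold (−2.16 ± 0.22, adjusted p = 2.41e-06). Gimap4 (−1.62), Gimap5 (−1.41), Gimap8 (−1.30), Gimap6 (−1.22) and Gimap1 (−0.86) lay between, and Gimap9 differed least, 1.42-fold (−0.51 ± 0.14, adjusted p = 0.0152). The libraries did not overlap for any member, as for 49.3% of tested genes, and the median was −1.35. All 8 were called lower with the Bst2+ libraries left out too, where 19.7% of tested genes were lower. The Gimap9 call was lost without CD25+ replicate 40 or 43 or FOXP3lo replicate 42 or 43, at −0.48, −0.50, −0.47 and −0.50.

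Other lists also differed between these progenitors. Early thymocyte genes were higher in CD25+ progenitors for 10 of 15 and lower for 1 (median 2.56), with sums of 1630 to 1670 CPM against 1024 to 1056. Of 4 gamma-delta markers tested, 2 (Trgc1 and Trgc2) were higher and none lower, with sums of 35.3 to 38.5 CPM against 10.17 to 16.6. Of the 11 T cell identity genes 8 were lower and none higher (median −0.37). What these lists contribute to the GIMAP differences was not tested.

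Mature Tregs likewise exceeded CD25+ progenitors in all 8 members, where 6.78% of all tested genes were higher. Gimap3 was 5.13-fold higher (2.36 ± 0.08, adjusted p = 1.59e-11) and Gimap7 4.9-fold higher (2.29 ± 0.23, adjusted p = 2.30e-06). The other 6 ran from 0.48 ± 0.14 for Gimap9 (adjusted p = 0.0271) to 1.20 ± 0.14 for Gimap4, and the libraries did not overlap for any member, as for 40.5% of tested genes. The Gimap9 call was lost without any 1 of the CD25+ or mature Treg libraries or conventional replicate 42, at 0.42 to 0.50. All 8 were again called higher when the Bst2+ libraries were left out, where 15.9% of tested genes were higher. This comparison shares the CD25+ libraries with the one before. Here 9 of 15 early thymocyte genes and 2 of 4 gamma-delta markers were lower in mature Tregs, and 1 early gene was higher. Among T cell identity genes 1 was higher and 1 lower (median −0.05). Their part was again not tested.

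Mature Tregs had somewhat lower levels than FOXP3lo progenitors. Gimap6 fell 1.51-fold (−0.60 ± 0.08, adjusted p = 0.000229) and Gimap3 1.24-fold (−0.31 ± 0.08, adjusted p = 0.0235), 2 of 8 members where 2.21% of all tested genes fell. Gimap8 (−0.45 ± 0.14, adjusted p = 0.0993), Gimap4 (−0.42 ± 0.14, adjusted p = 0.128) and Gimap5 (−0.35 ± 0.14) were not called. Gimap1 (−0.16 ± 0.10), Gimap9 (−0.02 ± 0.14) and Gimap7 (0.13 ± 0.21) were nearest to 0. The libraries did not overlap for 6 members, as for 31.4% of tested genes. Without the Bst2+ libraries 5 members fell, Gimap4, Gimap5 and Gimap8 added, where 9.29% of tested genes fell. Without any 1 of the 6 libraries compared, the Gimap3 call was lost, at −0.33 to −0.28, and Gimap6 alone was called. The Gimap3 call was also lost with no filter on low counts, at −0.32. T cell identity genes were lower in mature Tregs for 7 of 11 and higher for none (median −0.42), and their part was not tested.

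Whether the difference between CD25-positive and CD25-negative cells itself differed with FOXP3 was tested as an interaction, mature Tregs minus FOXP3lo progenitors, less CD25+ progenitors minus conventional cells. The gates with FOXP3 also differ in its level, Foxp3lo against Foxp3+. An effect of that level cannot be told apart from one of CD25 here. The interaction was called for 4 of 8 members, where 1.19% of all tested genes were called in that direction. For Gimap3 the CD25 difference was −1.64 without FOXP3 and −0.31 with it, an interaction of 1.33 ± 0.11 (adjusted p = 2.18e-06). For Gimap4 the 2 differences were −1.48 and −0.42 (1.06 ± 0.20, adjusted p = 0.00633). Gimap7 (1.26 ± 0.31, adjusted p = 0.0374) and Gimap9 (0.80 ± 0.20, adjusted p = 0.0396) passed as well. Gimap8 (0.56 ± 0.20), Gimap6 (0.28 ± 0.12), Gimap5 (0.06 ± 0.20) and Gimap1 (−0.26 ± 0.14) did not.

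With the replicate number as a block, Gimap3 and Gimap4 were called and the calls of Gimap7 (1.26, adjusted p = 0.0682) and Gimap9 (0.80, adjusted p = 0.066) were lost. Over all alternatives the adjusted p of Gimap7 ran from 1.07e-07 to 0.13 and that of Gimap9 from 4.13e-07 to 0.139, and the Gimap9 call was lost without any 1 of the 12 libraries of these gates, that of Gimap7 without any 1 but conventional replicate 40. Without the Bst2+ libraries 6 members were called, Gimap6 and Gimap8 added, where 5.46% of tested genes were called higher.

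**Figure D3:**
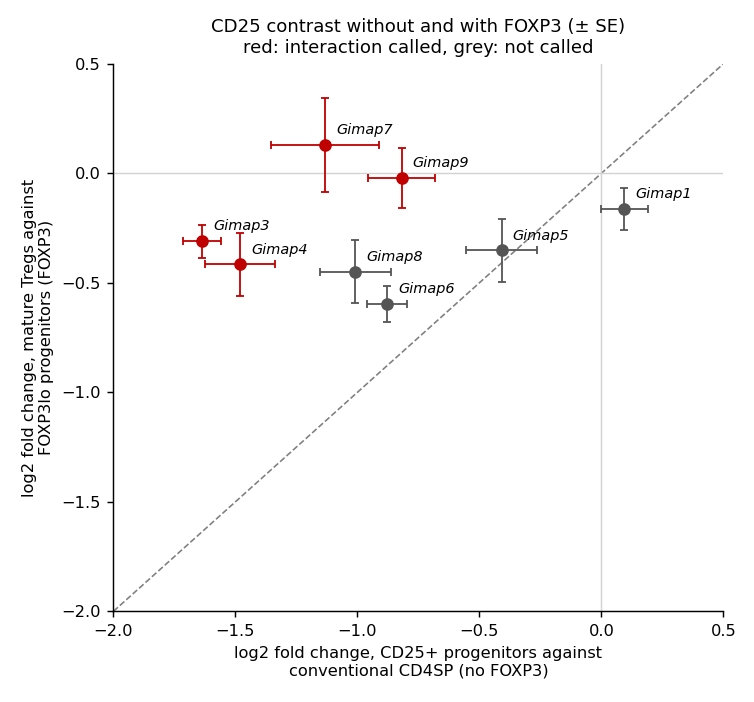
Log2 fold change between CD25-positive and CD25-negative cells without FOXP3 (x axis, CD25+ progenitors against conventional cells) and with FOXP3 (y axis, mature Tregs against FOXP3lo progenitors), 1 point per GIMAP gene with its standard error. The gates of the y axis also differ in FOXP3 level, Foxp3lo against Foxp3+. On the dashed line both differences are equal. Gimap3, Gimap4, Gimap7 and Gimap9 (red, interaction called) lie furthest above it, with Gimap3 at −1.64 and −0.31.

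In the family sum the Bst2+ gate lay between the others, but it had the lowest mean for Gimap1, Gimap5 and Gimap8. For these it was not separated from the next gate (adjusted p = 0.301, 0.652 and 0.876). Against conventional cells 5 of 8 members fell, where 15.6% of all tested genes fell: Gimap3 (−1.43 ± 0.08), Gimap8 (−1.05 ± 0.15), Gimap4 (−0.57 ± 0.14), Gimap5 (−0.51 ± 0.15) and Gimap6 (−0.37 ± 0.08). Against FOXP3lo progenitors 7 of 8 fell, all but Gimap9, where 20.4% of all tested genes fell. Against mature Tregs 5 fell (Gimap1, Gimap3, Gimap5, Gimap7 and Gimap8), where 17.9% of all tested genes fell. Against CD25+ progenitors 3 rose, where 10.7% of all tested genes rose: Gimap4 (0.91 ± 0.14), Gimap9 (0.68 ± 0.14) and Gimap6 (0.51 ± 0.08). Standard errors here pool the spread of all gates, and the other gates varied less than the Bst2+ gate.

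Gimap8 averaged 176 ± 50.01 CPM against 180.5 in CD25+ progenitors, and Gimap9 143 ± 38.3 against 157 in conventional cells, neither pair called. The Bst2+ libraries held C1qa at 130.2 ± 42.4 CPM and Lyz2, the lysozyme of myeloid cells, at 123 ± 34.1, both under 1.0 CPM on average in the other gates. Early thymocyte genes summed to 2066 to 2770 CPM there, gamma-delta markers to 87.5 to 246 and B cell markers to 7.38 to 47.9. None of the macrophage and dendritic cell, early thymocyte, gamma-delta or B cell markers matched was at 0 in that gate. What share these cells had in the GIMAP levels was not tested. With only the compared groups fitted, 2 members fell against conventional cells, the calls of Gimap4 (−0.57), Gimap5 (−0.51) and Gimap6 (−0.36) being lost. Fitted that way against CD25+ progenitors, the Gimap9 call was lost, at 0.70, and 2 rose, while with all groups 5 rose without Bst2+ replicate 42.

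Members also differed by their place in the cluster, a pattern noticed after their values were seen and given without a test. In FOXP3lo progenitors against conventional cells, the last 4 genes (Gimap7, Gimap1, Gimap5 and Gimap3) lay between 0.96 and 1.03 on the log2 scale. The first 4 (Gimap8, Gimap9, Gimap4 and Gimap6) lay between −0.31 and 0.34. In mature Tregs the last 4 lay between 0.65 and 1.16 and the first 4 between −0.33 and −0.16, so that the ranges of both groups were apart in each comparison, which share the conventional libraries. In CD25+ progenitors there was no such split, with the first 4 between −1.48 and −0.82 and the last 4 between −1.64 and 0.09.

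**Figure D4:**
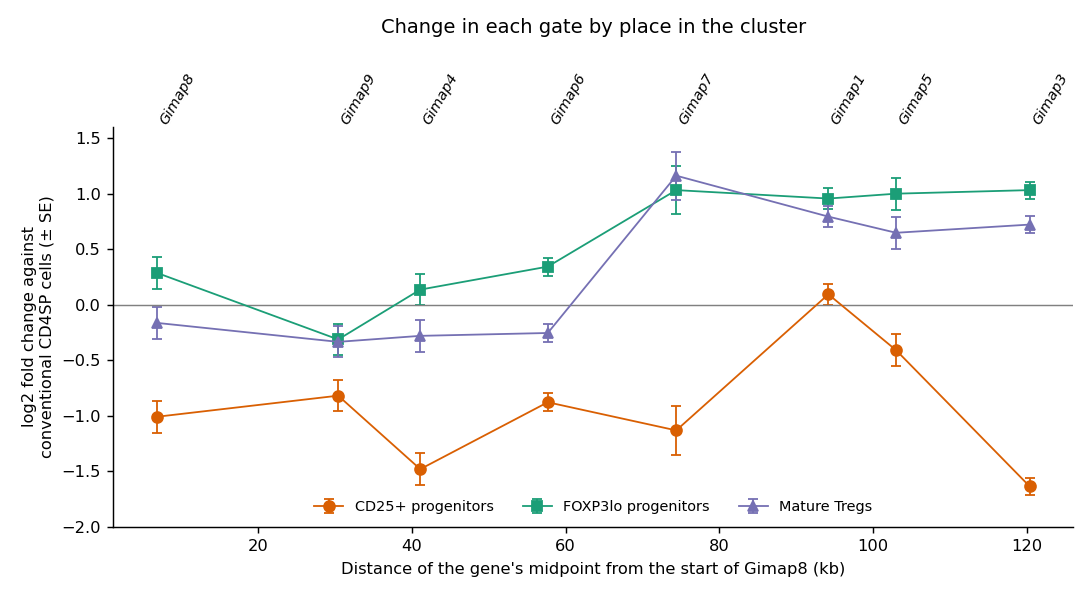
Log2 fold change against conventional cells (± standard error) of each GIMAP gene, placed by the distance of its midpoint from the start of Gimap8 in kb, for 3 gates. Lines only join the points. For FOXP3lo progenitors and mature Tregs the 4 genes on the right lie at 0.65 or above and the 4 on the left at 0.34 or below, while CD25+ progenitors show no step.

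The same values can be set out library by library, which adds no independent evidence. Gimap3 is the largest part of the sum over the last 4 genes, at 129.7 CPM per kb in conventional cells and 265 in FOXP3lo progenitors. The per-length level of the last 4 genes summed to 26.4% to 27.6% of that of the first 4 in conventional libraries and to 28.4% to 30.0% in CD25+ libraries. It came to 47.1% to 50.9% in FOXP3lo libraries and 55.8% to 56.3% in mature Treg libraries. It was lowest in Bst2+ libraries, at 16.97% to 21.9%.

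Other genes in and around the cluster were measured too. The read-through gene ENSMUSG00000098715, which spans Gimap7 to Gimap5, averaged 5.83 CPM in FOXP3lo progenitors, 5.49 in mature Tregs, 2.43 in conventional cells and 0.877 in CD25+ progenitors. It was not called in FOXP3lo progenitors against conventional cells (1.26 ± 0.91, adjusted p = 0.583). ENSMUSG00000044867, which overlaps Gimap1 on the opposite strand, averaged 46.6 CPM in conventional cells and fell in CD25+ progenitors to 19.1 (−1.28 ± 0.30, adjusted p = 0.00721). It was at 41.3 in FOXP3lo progenitors and 32.8 in mature Tregs, neither called against conventional cells, unlike Gimap1 itself. Within 200 kb on either side lie 27 further genes, of which 8 were tested. Of these, none was called in CD25+ progenitors and 1, Lrrc61, rose in FOXP3lo progenitors (1.11 ± 0.27, adjusted p = 0.0134) and in mature Tregs (1.29 ± 0.27, adjusted p = 0.00319), at no more than 31.7 CPM.

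Genes of proteins that GIMAPs are known to bind or to act with, mainly the BCL-2 family of survival and death factors and the GABARAP group of autophagy proteins, moved singly rather than as a list. Of 13 tested, 2 rose and 1 fell in CD25+ progenitors against conventional cells, with a median of −0.0037. The survival factor Bcl2 fell from 305 ± 19.3 to 164 ± 13.8 CPM (−0.90 ± 0.08, adjusted p = 1.15e-06). Bcl2l1, which encodes the survival factor BCL-XL, rose to 138 ± 5.67 from 57.9 ± 4.25 CPM (1.26 ± 0.11), and Bcl2l11, which encodes the death factor BIM, to 263 ± 33.1 from 91.0 ± 7.84 (1.53 ± 0.18).

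In FOXP3lo progenitors 2 of the 13 rose and 1 fell, with a median of 0.06. Mcl1, a survival factor of short half-life, rose (0.48 ± 0.07), as did Gabarap, a partner type of Gimap6 (0.56 ± 0.12), and Bcl2l1 fell (−0.71 ± 0.11). In mature Tregs 4 rose and 1 fell, with a median of 0.36. Bcl2l1 (0.83 ± 0.11), Gabarap (0.79 ± 0.12), Mcl1 (0.77 ± 0.07) and Bcl2 (0.36 ± 0.08) were higher, and Bcl2l11, named for its direction after its values were seen, was lower (−0.76 ± 0.18). The interaction of the gates was called for Bcl2 (1.51 ± 0.12) and Mcl1 (0.50 ± 0.09) upward and for Bcl2l11 downward (−2.57 ± 0.25).

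Markers of late single-positive thymocytes, a list without GIMAP genes, moved in the same comparisons. Of all tested genes, 5.66% fell in CD25+ progenitors against conventional cells, 4.88% rose in FOXP3lo progenitors and 6.45% rose in mature Tregs. In CD25+ progenitors 10 of 16 tested fell and 1, the growth factor receptor gene Igf1r, rose (median −1.22). Dgka, a lipid kinase that dampens T cell receptor signals (−1.09 ± 0.07), Ms4a6b (−1.74 ± 0.12), the egress receptor S1pr1 (−1.40 ± 0.10) and the IL-7 receptor chain Il7r (−2.57 ± 0.20) fell. In FOXP3lo progenitors 12 of 16 rose and 1 fell (median 0.89), with S1pr1 at 1.62 ± 0.10 and Igf1r at 1.37 ± 0.09, while Il7r fell (−2.91 ± 0.21). In mature Tregs 10 rose, Igf1r (2.17 ± 0.10) among them, and Il7r and Dgka fell (median 0.92). The sum over the list ran from 1492 to 1643 CPM in CD25+ libraries, 2093 to 2253 in Bst2+, 3128 to 3456 in conventional, 4451 to 4576 in mature Treg and 4885 to 5214 in FOXP3lo libraries, the same order of gates as the GIMAP sum.

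Other immune and small GTPases, a list of GBP, IRG, RAC and related genes, also fell in CD25+ progenitors (7 of 14 tested, none higher, median −0.53) and rose in FOXP3lo progenitors (7 of 14, none lower, median 0.57). In mature Tregs 8 rose and 1, Gbp4, fell (median 0.39). Gbp7, a guanylate-binding protein induced by interferon, was at −1.22 ± 0.16 in CD25+ progenitors, and Gbp5 was at 1.54 ± 0.22 in FOXP3lo progenitors and 1.89 ± 0.22 in mature Tregs.

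Transcription factors that act in thymocyte maturation were split. Of 17 tested, 1 rose and 6 fell in CD25+ progenitors (median −0.19), 5 rose and 5 fell in FOXP3lo progenitors (median 0.08), and 6 rose and 6 fell in mature Tregs (median −0.03). In these comparisons Klf3 was at −0.72 ± 0.11, 1.27 ± 0.11 and 1.17 ± 0.11. It had the sign of the GIMAP median in each, but not that of every member. Its relative Klf2, the factor that drives S1pr1 and stands in the late single-positive list too, was at −0.47 ± 0.08, 0.55 ± 0.08 and 0.94 ± 0.08. Satb1, a chromatin organiser, fell in all of them (−1.10 ± 0.09, −0.85 ± 0.09 and −1.49 ± 0.09). The 3 comparisons share the conventional libraries.

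The endothelial marker sum also ran in the GIMAP order, from 108 to 122 CPM in CD25+ libraries to 261 to 296 in FOXP3lo libraries. Nearly all of it was Pecam1, which T cells also express, at 116 and 279 CPM on average in these gates. The defining endothelial gene Cdh5 averaged at most 1.22 CPM in the 4 Bst2-negative gates and Emcn was at 0 in 3 of them.

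Members kept step with each other to different degrees. Over the 12 libraries of the 4 Bst2-negative gates, which share gates and depth, Gimap3 followed the mean of the other members most closely (Pearson r = 0.985), then Gimap8 (0.95), Gimap4 (0.925), Gimap6 (0.91), Gimap7 (0.909) and Gimap5 (0.866). Gimap1 (0.64) and Gimap9 (0.637) followed least, and their r with each other was 0.0643. The closest pair was Gimap6 and Gimap8 (0.975), and the next Gimap4 and Gimap8 (0.97).

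Among 6204 other genes of at least 20 CPM, the 10 whose level was most like the mean GIMAP pattern over these 12 libraries had r between 0.984 and 0.99. They were Ms4a6b, 9930111J21Rik2, Prkd2, Ifit3, Gm8995, Cdc42se1, Tcp11l2, Sun2, Zbtb4 and Chd3. Ms4a6b, a membrane protein of T cells, was at 412 ± 34.7 CPM in FOXP3lo progenitors, 313 ± 10.1 in mature Tregs, 233 ± 24.7 in conventional cells and 69.7 ± 9.61 in CD25+ progenitors. Such likeness was common, as 323 of the candidates had r of at least 0.9. Over all 15 libraries the 10 genes had r between 0.736 and 0.981, and 2 of them stayed among the 10 most like. Over the 4 gate means only 1 of them stayed, and Ms4a6b was at rank 25.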

How the data were processed

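Bulk RNA of 15 sorted thymocyte samples was sequenced after preparation with the SMARTer Stranded Total RNA-Seq Pico v2 kit, per the labels' protocols. The authors deposited unnormalized counts of read pairs for each gene. Per the file headers, featureCounts 1.6.2 counted pairs against Ensembl 97 genes (GRCm38), requiring that both ends were mapped at a quality of 10 or more, with strand setting 2. Per the submitters' processing notes, Trimmomatic 0.33 and HISAT2 2.1.0 were also used, and featureCounts is listed there as 1.4.6. Of 55573 genes, 35753 were given a symbol by matching positions to a RefSeq table (GRCm38.p6), and all list genes were found this way except Bak1, Tcrg-C4, Ms4a6c, Irgm2, Gbp8 and Gbp9.

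Counts were tested in R 4.3.3 with edgeR 4.0.16 (robust quasi-likelihood test, TMM factors, filterByExpr) over all 15 libraries with 5 group means. The test was also run on simulated counts. These gave every gate the same spread, so that check cannot speak to the wider spread of the Bst2+ libraries. The threshold for a call was 0.05 on the Benjamini-Hochberg adjusted p. CPM use TMM-scaled library sizes, and per-length levels divide by exon length. The depth of 10816064 to 23758157 counts limits precision, and pairs without molecular identifiers are not independent molecules. The members and lists were chosen with earlier results of these data known. Named are every member, the 10 genes most like them by Pearson r, and up to 4 called genes per list and comparison with the smallest adjusted p. Not every gene this rule admits is named, and one gene is not reported here. For lists described over several comparisons, genes named in one are followed through the others. Counts of list genes can be set against the share of all tested genes given for the same comparison and direction. In other directions that share is not given.

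Going by the design text, libraries with the same number were taken as 1 biological replicate. The main test had no term for the replicate, so same-numbered libraries of different gates entered it as independent. Deviations of same-numbered libraries from their group means correlated at −0.02 to 0.04 across genes (mean 0.0107, 30 pairs) and those of other pairs at −0.04 to 0.03 (mean −0.00535, 60 pairs). Within the 4 Bst2-negative gates the means were 0.0184 for same-numbered pairs (18 pairs) and −0.0092 for other pairs (36 pairs). No 2 libraries agreed within sampling noise. The alternatives tried were other scaling factors (RLE, upper quartile), no filter on low counts or one of 2 CPM in 3 libraries, the replicate block, limma-voom (limma 3.58.1), DESeq2 1.42.0, the 20 most abundant genes left out, only the groups compared, no Bst2+ libraries, and leaving out each library in turn.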

Additional observations from a re-analysis of the deposited data

Results flagged for a closer look

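For 4 members the difference between CD25-positive and CD25-negative cells was itself different with and without FOXP3, by the interaction test of edgeR's quasi-likelihood model with Benjamini-Hochberg adjustment over 16069 genes. The gates with FOXP3 also differ in its level, Foxp3lo against Foxp3+, which cannot be told apart from CD25 here. The interaction was 1.33 for Gimap3 (adjusted p = 2.18e-06), 1.06 for Gimap4 (adjusted p = 0.00633), 1.26 for Gimap7 (adjusted p = 0.0374) and 0.80 for Gimap9 (adjusted p = 0.0396) on the log2 scale. For Gimap3, Gimap4 and Gimap9 the CD25-positive cells had the lower mean by a wider margin where FOXP3 was absent. For Gimap7 the difference was −1.13 without FOXP3 and 0.13 with it. Gimap3 and Gimap4 were called in all 25 alternatives run, and Gimap7 and Gimap9 in 13 and 11 of them.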

How the results depend on the processing

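No member's fold change reversed where it was called, in any comparison or alternative. The number of members called, 4 in mature Tregs against conventional cells, was 7 without the Bst2+ libraries and 7 with only the compared groups fitted (3 to 7 leaving out 1 library). In mature Tregs against FOXP3lo progenitors, 2 became 5 and 5 under the same alternatives and 4 with limma-voom (1 to 4). More of all tested genes were called without the Bst2+ libraries too. Against conventional cells 15.1% rose rather than 6.45%, and against FOXP3lo progenitors 9.29% fell rather than 2.21%. For the other alternatives, here and above, the share over all tested genes is not given. In Bst2+ cells against conventional cells, 5 became 2 with only those groups fitted (4 to 7), and against CD25+ progenitors 3 became 5 with RLE factors, 5 with DESeq2 and 2 with only those groups fitted (3 to 5). In the interaction, 4 became 2 with the replicate block (2 to 5 leaving out 1 library), and this block changed no other call of a member. The cause of these changes was not tested. Leaving out 1 library gave 6 to 7 members in CD25+ progenitors against conventional cells, 4 to 6 in FOXP3lo progenitors, 7 to 8 in CD25+ against FOXP3lo progenitors and in mature Tregs against CD25+ progenitors, 7 to 8 in Bst2+ cells against FOXP3lo progenitors and 5 to 7 against mature Tregs. The 3 libraries in each gate and the spread of the Bst2+ libraries limit what could be called.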
